A study of Rattus norvegicus with 6 samples.

Results

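The genes described here are 39 genes of the skeletal muscle fibre, chosen by name: 13 of fast fibres, 9 of slow fibres and 17 that both fibre types use. Each was matched by its symbol to a row of the gene table, and 34 of the 39 were found among 43350 rows: 10 fast, 9 slow and 15 shared genes. Atp2a1, Myh1, Myh2, Tcap and Ttn were not analysed here. RNA was sequenced from the lumbar 4 to 6 dorsal root ganglia (DRG) of 6 male Sprague-Dawley rats at day 11 after surgery. In the 3 CCI rats (chronic constriction injury) loose ligatures had been placed on the left sciatic nerve, and in the 3 sham rats the nerve was exposed and not tied, although the labels give their treatment as none. The methods give 1 rat per library and the ganglia of the operated side, while the labels also speak of a pooled sample. Each library held between 75423546 and 87615743 counts. Counts of a gene are given below in the order of libraries 1, 2 and 3 of each group.

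Skeletal muscle contracts when myosin of the thick filament pulls on actin of the thin filament, within sarcomeres that are bounded by Z-discs and held together at the middle by the M-band. Calcium from the sarcoplasmic reticulum binds troponin C on the thin filament and lets myosin attach. Fast and slow fibres build this machine from paralogous genes, so that troponin, myosin and calsequestrin each have a fast and a slow form, whereas skeletal actin, nebulin and muscle creatine kinase serve both. A dorsal root ganglion holds the cell bodies of sensory neurons with satellite glia and Schwann cells and contains no muscle fibres, although the axial muscles lie close to it and some of the proteins, among them tropomyosins, are also made by other cells.

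The tissue label was checked against its own markers. All 10 DRG neuron markers, from Tubb3 and Prph to the sodium channel genes Scn9a, Scn10a and Scn11a, were present in every library, with a summed level of 2710 to 2890 FPKM in the CCI group and 2200 to 2560 FPKM in the sham group. FPKM, fragments per kilobase of the gene row scaled to the depth of the library, is a level per length. The lowest of these sums was that of sham 1. The 10 glial markers summed to 3100 to 4260 FPKM, with sham 1 at the top. Sham 1 stood apart in the muscle genes, and values that rest on it are given with and without it.

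Transcription in muscle is driven by serum response factor, MEF2 and MyoD-type factors, and the promoters of these genes were searched for the motifs of those factors. The matches of the rarer motifs are printed. They lie in genes that differed strongly between libraries, such as Acta1 and Myh4, and in genes that differed much less, such as Ldb3 and Casq2. RefSeq promoters of the GRCr8 assembly matched 28 of the 34 genes, and the 250 bases before the start were searched on both strands. The CArG box, the motif of serum response factor, was found in 4 of the 28 (14.3%) against 1.5% of 27457 promoters. The MEF2 motif was found in 3 (10.7% against 3.07%). Of the E-boxes that MyoD-type factors bind, CAGCTG was found in 8 (28.6% against 11.9%) and CACCTG in 10 (35.7% against 15.6%). The letters CATTCC, the core motif of TEAD factors, were found in 7 of the 28, against 11.8% of all promoters, and TATAAA in 8 (28.6% against 13.1%). Motif matches may overlap each other, and a match describes the letters only. The CArG boxes, in capitals, read on the strand of the gene:
Acta1: cccaacacCCAAATATGGcttgggaa
Ldb3: gttacagtCCATTTATGGgcgcagca
Myh4: agagattgCCAAAAATGGttttgcca
Myl3: gccaatgcCCTTTTATGGccctgtcc

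These windows lie at chr19:68784271-68784296 (minus strand, Acta1), chr16:9924714-9924739 (minus strand, Ldb3), chr10:52422022-52422047 (plus strand, Myh4) and chr8:119616989-119617014 (plus strand, Myl3) of GRCr8. The MEF2 matches, also in capitals, were in Casq2, Myh4 and Myoz1, so that Myh4 alone held both motifs:
Casq2: tgcatgatTTATTTTTAGcccgaaac
Myh4: ctgtcaaaTTATTTATAGatgacaag
Myoz1: catcgactCTATTAATAAccaccccc

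They lie on the plus strand at chr2:192214399-192214424, chr10:52421944-52421969 and chr15:3693522-3693547. The gene rows themselves are on another assembly, which the study calls V101, and their coordinates below are those of the table.

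The muscle genes were highest in sham 1. Of the 34 genes, 31 had their highest CPM (counts scaled to library depth) there, including all 10 fast genes, 8 of 9 slow genes and 13 of 15 shared genes. The exceptions were Ldb3, highest in sham 2, Pgam2, highest in CCI 3, and Myl2, the slow regulatory light chain, which had 0 counts in all 6 libraries. Among the 25 genes with a mean of at least 0.5 FPKM, 23 were highest in sham 1, where 15.4% of all 26663 such rows were, and 18 were at least 2-fold above the median of the other 5 libraries, against 3.07% of all rows. Because the mean includes sham 1, it also admits genes that are low elsewhere. The 34 genes took 0.128% of all counts in sham 1 and 0.0496% to 0.0539% in the other 5 libraries. In bulk tissue, more cells of a type and more RNA per cell cannot be told apart.

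Sham 3 came next. It was the second highest library for 17 of the 31 genes that were highest in sham 1, against 5 for CCI 1. Of the 25 genes, 11 were at least 2-fold above the median of the other 5 libraries in sham 3, against 3.07% of all rows, and 16 were above every CCI library, against 27.2% of all rows. In sham 2 these numbers were 1 and 6, against 3.22% and 27.2% of all rows. The 1 gene was Tnni2, with 5 counts in sham 2 over a median of 0. Among the 25 genes, CCI 1 was also at least 2-fold above this median for Myl1 (9.94), Myh4 (5.93), Tnnc2 (3.46) and Myoz1 (3.22). The highest ratios of any muscle gene were 1.75 in CCI 2 and 1.5 in CCI 3. Sham 2 resembled CCI 2 and CCI 3 in its muscle genes. Across the 34 genes the order of FPKM in sham 2 had a Spearman rho of 0.94 with CCI 2 and 0.93 with CCI 3, but of 0.44 with sham 1. Sham 1 was most like sham 3 (rho 0.81), and least like CCI 2 (rho 0.37). These are descriptions across genes of libraries from the same tissue, not tests.

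**Figure D1:**
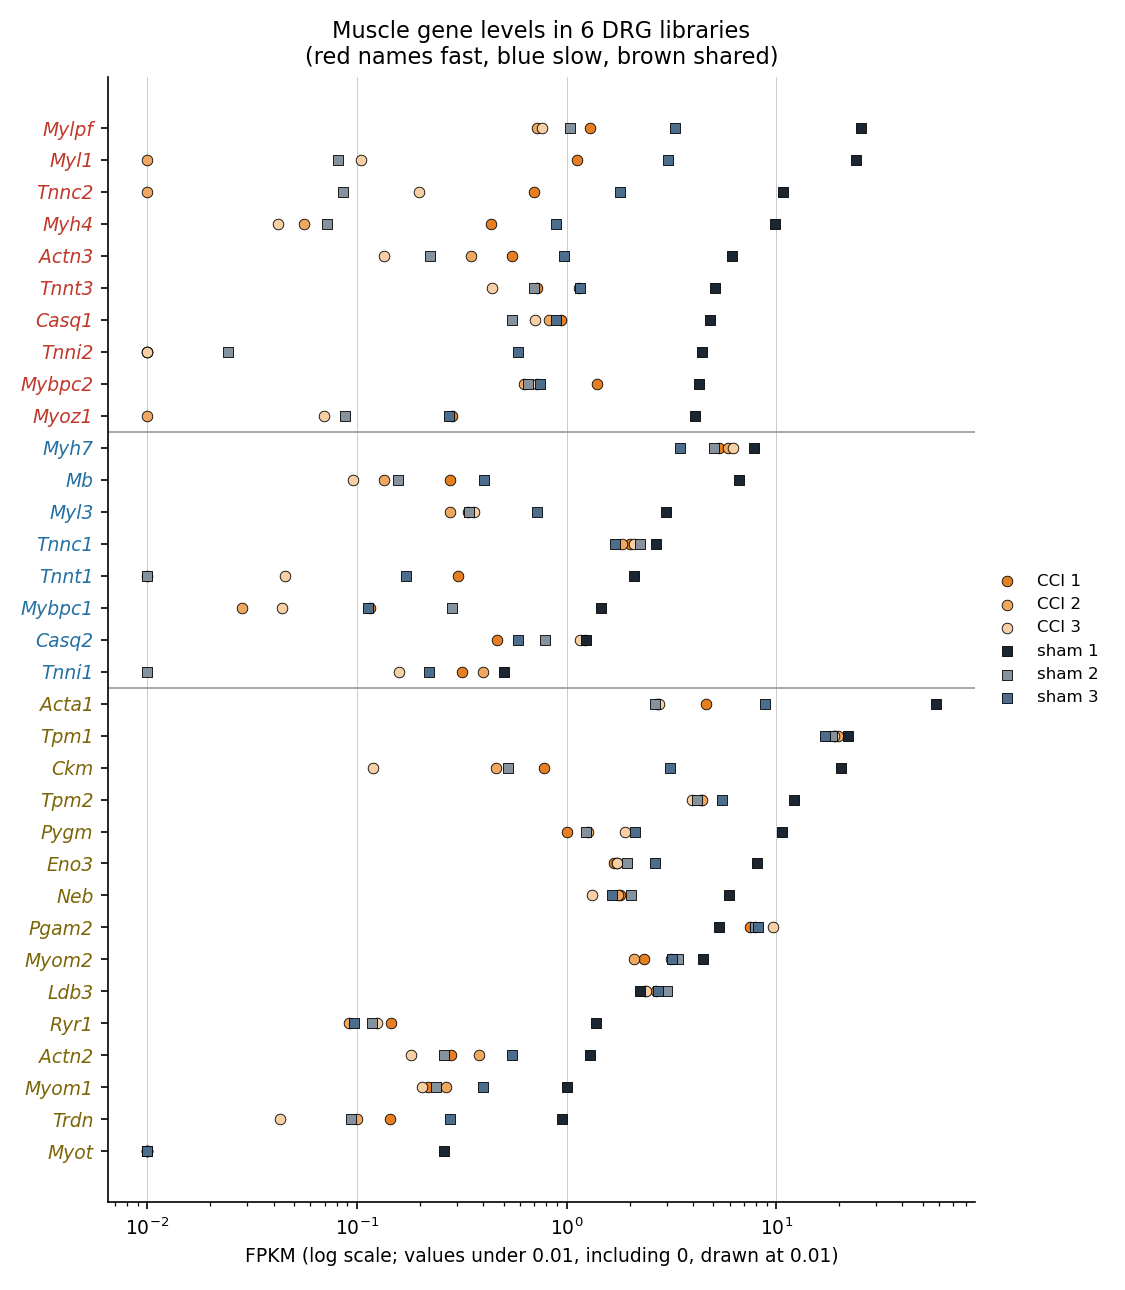
FPKM (x axis, log scale) of the 33 muscle genes with any count in each of the 6 libraries, grouped into fast (red names), slow (blue) and shared (brown) genes, with circles for CCI and squares for sham libraries and values under 0.01 drawn at 0.01. The black squares of sham 1 lie farthest right for all but Ldb3 and Pgam2, and the sham 3 square is often the next.

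Of the thin filament genes, Acta1 and Tnni2 were lower in CCI, both highest in sham 1 and next in sham 3. Acta1, skeletal alpha-actin (chromosome 19, 56674074 to 56677084), had counts of 591, 340 and 329 in the CCI rats against 7943, 334 and 1164 in the sham rats. Sham 1 was far above the rest, sham 3 was above all CCI libraries, and sham 2 was level with CCI 2 and CCI 3, so that the groups overlapped. The means were 5.27 ± 1.74 CPM in CCI and 36.2 ± 47.1 CPM in sham (SD, n = 3 each). Acta1 was lower in CCI by a log2 fold change of -2.78 (SE 1.06), with an unadjusted p = 0.0362 and an adjusted p = 0.421 in edgeR. Without sham 1 the log2 fold change was -0.80, and Acta1 missed the threshold (unadjusted p = 0.195 in edgeR).

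Of the fast troponins, Tnni2 was counted in sham libraries and in no CCI library. Tnni2, the inhibitory subunit of fast troponin (chromosome 1, 215609036 to 215611658), had counts of 0, 0 and 0 in the CCI rats against 758, 5 and 96 in the sham rats. The groups did not overlap, but the 5 counts of sham 2 stood little above the 3 counts taken as the floor of detection. Set against that floor in each CCI library, the sham mean was at least 86.8-fold higher, and at least 16.2-fold higher without sham 1. Tnni2 was called lower in CCI with all libraries (unadjusted p = 0.0196, adjusted p = 0.353 in edgeR) and without sham 1 (unadjusted p = 0.0244 in edgeR). Its mean over the libraries other than sham 1 was under 0.5 FPKM, so it entered both fits only through sham 1. Without sham 1 the call rested on the 96 counts of sham 3 and the 5 of sham 2.

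Tnnc2, the calcium-binding subunit of fast troponin, had counts of 48, 0 and 13 in the CCI rats against 778, 6 and 125 in the sham rats. CCI 1 was above sham 2, so the groups overlapped, and the log2 fold change of -3.77 (SE 1.74) was not called (unadjusted p = 0.0693 in edgeR). Tnnt3, the tropomyosin-binding subunit, had counts of 335, 523 and 189 in the CCI rats against 2562, 319 and 556 in the sham rats. Here only sham 1 was well above the CCI range, and the gene was not called (log2 fold change -1.61, unadjusted p = 0.0792 in edgeR).

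Of the slow troponins, only Tnnc1 passed the filter. Tnnc1, troponin C of slow and heart muscle, had counts of 187, 170 and 182 in the CCI rats against 269, 206 and 164 in the sham rats. It was measured at a similar level in all libraries, with sham 3 the lowest, and its log2 fold change was -0.17 (SE 0.21). Tnni1 had counts of 37, 46 and 17 in the CCI rats against 63, 0 and 27 in the sham rats, and Tnnt1 had counts of 27, 0 and 4 in the CCI rats against 196, 0 and 16 in the sham rats. Both were under the filter on low values and entered no test.

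Neb and the tropomyosins were present in every library. Neb, nebulin, which runs along the thin filament (chromosome 3, 37658085 to 37856165), had counts of 3712, 3604 and 2547 in the CCI rats against 13420, 4160 and 3519 in the sham rats. Sham 1 was above the rest, sham 3 lay within the CCI range, and Neb was not called (log2 fold change -1.0, SE 0.48, unadjusted p = 0.0799 in edgeR). Tpm2, beta-tropomyosin, had counts of 489 to 581 in the CCI rats against 1733, 548 and 752 in the sham rats, with a log2 fold change of -0.78 (unadjusted p = 0.0804 in edgeR). Tpm1, alpha-tropomyosin, which many cell types express, had counts of 14566 to 16011 in the CCI rats against 14459 to 19721 in the sham rats, with a log2 fold change of -0.01 (SE 0.09). Of the 8 thin filament genes tested, 2 were thus called lower, against 1.26% of all rows, and 0 higher, against 2.57%.

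In the thick filament, the fast myosin heavy chain row spanned the widest range of counts. The Myh4 row (chromosome 10, 53713938 to 53848347) had counts of 710, 90 and 65 in the CCI rats against 17160, 117 and 1489 in the sham rats. Sham 1 and sham 3 were above every CCI library, but CCI 1 was above sham 2. The log2 fold change of -4.32 (SE 1.80) fell just short of a call (adjusted p = 0.465 in edgeR) and was -1.45 without sham 1. This row is 134.4 kb long and joins 8 transcripts. In RefSeq the order on this chromosome is Myh3, Myh2, Myh1, Myh4, Myh8 and Myh13, and no separate rows for Myh1 or Myh2 were used, so the row may include reads of those near-identical genes.

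The light chains followed. Mylpf, the fast regulatory light chain (chromosome 1, 198655742 to 198658583), had counts of 85, 47 and 47 in the CCI rats against 1793, 67 and 222 in the sham rats. Sham 2 lay between the CCI libraries, and the other sham libraries were above them. Mylpf was lower in CCI (log2 fold change -3.41, SE 1.15, unadjusted p = 0.0227, adjusted p = 0.366 in edgeR), and without sham 1 the change was -1.24 and not called (unadjusted p = 0.0746 in edgeR).

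Myl1, the fast essential light chain, had counts of 106, 0 and 10 in the CCI rats against 2445, 8 and 297 in the sham rats. The CCI libraries differed among themselves from 0 to 106 counts, and its log2 fold change of -4.45 (SE 2.05) was not called (unadjusted p = 0.0691 in edgeR). Myl3, the slow essential light chain (chromosome 8, 119007050 to 119036996), had counts of 41, 34 and 42 in the CCI rats against 393, 42 and 92 in the sham rats. The CCI libraries lay close together, sham 2 was among them by CPM, and Myl3 was lower in CCI (log2 fold change -2.05, SE 0.77, unadjusted p = 0.0347, adjusted p = 0.418 in edgeR). Without sham 1 Myl3 was not called (log2 fold change -0.74, unadjusted p = 0.148 in edgeR).

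Mybpc2, fast myosin-binding protein C, had counts of 536, 238 and 260 in the CCI rats against 1774, 248 and 297 in the sham rats. Sham 2 and sham 3 lay within the CCI range, and the log2 fold change turned from -1.05 to 0.36 without sham 1. Mybpc1, its slow partner, had counts of 41, 10 and 15 in the CCI rats against 559, 100 and 42 in the sham rats. By CPM every sham library was above every CCI library, but sham 3 only barely, at 0.508 against 0.504 CPM in CCI 1. Mybpc1 was under the filter.

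The slow heavy chain did not follow the others. Myh7 shares 1 row with the heart myosin Myh6, which lies beside it (chromosome 15, 33602831 to 33656089), and this row had counts of 12367, 13392 and 13422 in the CCI rats against 19622, 11502 and 8314 in the sham rats. Sham 1 was the highest but sham 3 the lowest, and the log2 fold change was 0.08 (SE 0.27), or 0.43 without sham 1 (unadjusted p = 0.0466 in edgeR, under the fold limit). The reads of Myh6 and Myh7 cannot be told apart in it. Of the 6 thick filament genes tested, Mylpf and Myl3 were called lower, against 1.26% of all rows.

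At the Z-disc, Actn3, the fast fibre alpha-actinin that crosslinks actin (chromosome 1, 220120533 to 220136470), had counts of 141, 89 and 32 in the CCI rats against 1711, 57 and 257 in the sham rats. Sham 2 was below CCI 1 and CCI 2. Actn3 was lower in CCI (log2 fold change -2.84, SE 1.18, unadjusted p = 0.0499, adjusted p = 0.465 in edgeR) and not without sham 1 (log2 fold change -0.82, unadjusted p = 0.347 in edgeR). Myoz1, a Z-disc protein of fast fibres that binds calcineurin, had counts of 33, 0 and 8 in the CCI rats against 515, 10 and 33 in the sham rats, and was not called (unadjusted p = 0.0739 in edgeR).

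Ldb3, another Z-disc protein, differed little between libraries, with counts of 1186 to 1416 in the CCI rats against 1283, 1571 and 1493 in the sham rats (log2 fold change -0.11, SE 0.13). At the M-band, Myom2, a myomesin, had counts of 944, 832 and 1182 in the CCI rats against 1940, 1351 and 1319 in the sham rats. Its groups did not overlap, but its log2 fold change of -0.56 (SE 0.19, unadjusted p = 0.0253, adjusted p = 0.379 in edgeR) was under the fold limit. Myom1 ranged from 86 to 119 counts in CCI and reached 487 in sham 1, Actn2 ranged from 45 to 100 and reached 369, and Myot had 0 in every CCI library and in sham 3, 2 in sham 2 and 61 in sham 1. These last 3 genes were under the filter. Of the 4 Z-disc and M-band genes tested, Actn3 was called lower, against 1.26% of all rows.

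Of the genes of calcium handling, 2 were tested, Casq1 and Casq2, and neither was called (unadjusted p = 0.131 and 0.813 in edgeR). Casq1, the fast calsequestrin that stores calcium in the sarcoplasmic reticulum, had counts of 155, 134 and 108 in the CCI rats against 860, 90 and 152 in the sham rats. Sham 1 alone was outside the CCI range on the high side, and the log2 fold change turned from -1.36 to 0.16 without it. Casq2, the calsequestrin of slow and heart muscle, had counts of 105, 275 and 243 in the CCI rats against 303, 176 and 137 in the sham rats (log2 fold change 0.11, SE 0.43). Ryr1, the calcium release channel (chromosome 1, 87959712 to 88066101), had counts of 123 to 196 in the CCI rats against 2001, 158 and 134 in the sham rats, so that 1 library held the difference. Trdn, triadin, which links this channel to calsequestrin, had counts of 17 to 60 in the CCI rats against 423, 39 and 118 in the sham rats. Ryr1 and Trdn were under the filter.

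Of the 5 genes of energy supply, 3 were lower in CCI, against 1.26% of all rows, and 0 of them without sham 1. Ckm, muscle creatine kinase, which regenerates ATP from phosphocreatine (chromosome 1, 80321585 to 80331841), had counts of 100, 59 and 15 in the CCI rats against 2825, 67 and 410 in the sham rats. Sham 2 lay within the CCI range and the other sham libraries above it. The means were 0.719 ± 0.517 CPM in CCI and 12.6 ± 17.0 CPM in sham (SD, n = 3 each). The log2 fold change was -4.13 (SE 1.37, unadjusted p = 0.0210, adjusted p = 0.359 in edgeR) and -2.01 without sham 1, where it was not called (unadjusted p = 0.0836 in edgeR).

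Mb, myoglobin, the oxygen store of slow fibres (chromosome 7, 118101634 to 118108864), had counts of 24, 12 and 8 in the CCI rats against 602, 14 and 36 in the sham rats. Outside sham 1 the gene had few counts, and its log2 fold change went from -3.75 (SE 1.42, unadjusted p = 0.0354, adjusted p = 0.418 in edgeR) to -0.74 without sham 1 (unadjusted p = 0.343 in edgeR). Eno3, the muscle enolase of glycolysis (chromosome 10, 57274739 to 57283653), had counts of 337, 342 and 322 in the CCI rats against 1731, 381 and 543 in the sham rats. The CCI libraries lay close together, at 4.20 ± 0.0501 CPM against 10.3 ± 8.13 CPM in sham (SD, n = 3 each), and the groups did not overlap. Eno3 was lower in CCI (log2 fold change -1.30, SE 0.52, unadjusted p = 0.0425, adjusted p = 0.442 in edgeR), and without sham 1 the change of -0.43 (SE 0.19) was under the fold limit (unadjusted p = 0.0620 in edgeR).

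Pygm, muscle glycogen phosphorylase, had counts of 258, 320 and 453 in the CCI rats against 2934, 313 and 558 in the sham rats, and was not called (log2 fold change -1.75, unadjusted p = 0.0660 in edgeR). Pgam2, the muscle phosphoglycerate mutase, went the other way in sham 1, with counts of 3893, 4040 and 4617 in the CCI rats against 2966, 4035 and 4369 in the sham rats (log2 fold change 0.21, SE 0.18). Sham 1 was the lowest library for this gene. The length behind its FPKM, 6376 bases, is longer than the 5.8 kb its row covers, so that the FPKM of a row is not that of a single transcript, and comparisons of levels between genes are limited by this.

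By the median ratio, fast genes exceeded slow and shared genes in the size of the sham 1 difference. The ratio of sham 1 to the median of the other 5 libraries, in CPM, had a median of 24.2 over 9 fast genes (5.89 to 212), of 5.32 over 8 slow genes (1.33 to 42.5) and of 4.35 over 14 shared genes (0.664 to 38.1). The highest ratios were 212 for Myl1 and 132 for Myh4, and all 9 fast genes were at 5.89 or above, whereas Casq2, Tnnc1 and the Myh7 row stayed between 1.33 and 1.55. The slow genes were not alike: Mb reached 38.8 and Tnnt1 42.5, and the shared Ckm reached 38.1. The ratio also depends on the level in the other libraries. Myl1, Tnnc2 and Myoz1 had few counts in several of them, whereas the Myh7 row, Tpm1, Pgam2 and Ldb3 were well counted in every library. Fibre class and level elsewhere were not separated here. For Myot, Tnni2 and Myl2 the median of the other 5 was 0 and no ratio was formed. The counts of tested genes at least 2-fold above that median, given earlier for the sham libraries, do include Tnni2.

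In sham 3 the corresponding medians were 3.17 for fast, 0.920 for slow and 1.41 for shared genes, and in CCI 1 they were 1.75, 0.978 and 1.0. The other 3 libraries were low in fast genes: the median ratio was 0.343 in CCI 2, 0.276 in CCI 3 and 0.414 in sham 2, while their slow and shared medians were between 0.765 and 0.962. From sham 3 to sham 1 the fast genes differed by a median of 6.84-fold (4.34 to 14.7, 10 genes), the slow genes by 3.12-fold and the shared genes by 2.73-fold. No test was made of these class differences, since genes are not replicates.

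**Figure D2:**
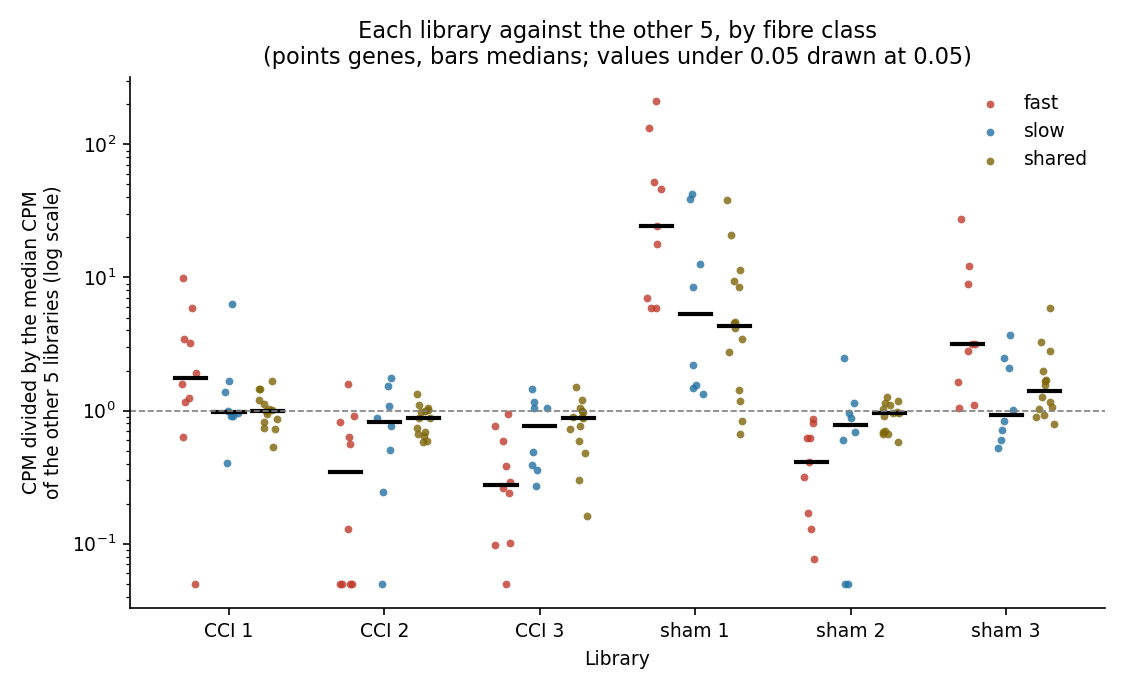
CPM of each gene in a library divided by the median CPM of the other 5 libraries (y axis, log scale, values under 0.05 drawn at 0.05), by library and fibre class, with points for genes and bars for medians. The fast genes of sham 1 have a median of 24.2 and those of sham 3 of 3.17, while CCI 2, CCI 3 and sham 2 have fast medians below 1.

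Summed FPKM put the same contrast per library. Fast genes summed to 7.44, 3.72 and 3.18 FPKM in CCI 1, 2 and 3 and to 99.1, 3.51 and 13.7 FPKM in sham 1, 2 and 3. Slow genes summed to 9.16, 9.77 and 10.2 FPKM in CCI and to 25.4, 8.85 and 7.42 FPKM in sham 1, 2 and 3. Sham 1 was highest in both. Sham 3, the second highest in fast genes, was the lowest in slow genes only through the joined Myh6 and Myh7 row. Without that row the slow genes summed to 3.81, 3.91 and 3.95 FPKM in CCI and to 17.6, 3.81 and 3.93 FPKM in sham 1, 2 and 3, so that sham 3 lay within the CCI range.

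Fast genes made up 79.6% of the summed fast and slow FPKM in sham 1 and 64.8% in sham 3, against 44.8%, 27.6% and 23.8% in CCI 1, 2 and 3 and 28.4% in sham 2. With the joined Myh6 and Myh7 row left out, these shares became 85.0% and 77.7% in sham 1 and sham 3, 66.1%, 48.7% and 44.6% in CCI, and 48.0% in sham 2. The order of the 6 libraries was thus changed only between sham 2 and CCI 2. Shared genes summed to 154.0 FPKM in sham 1, 56.2 FPKM in sham 3 and 45.1 to 46.6 FPKM in the other 4 libraries.

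Partner genes of 1 protein make the contrast within single libraries. For troponin C, fast Tnnc2 was at 10.8 FPKM and slow Tnnc1 at 2.67 FPKM in sham 1, and both were nearly level in sham 3, at 1.80 and 1.71 FPKM. In sham 2 Tnnc2 was at 0.0854 and Tnnc1 at 2.23 FPKM, and in CCI 1, 2 and 3 Tnnc2 was at 0.702, 0 and 0.198 FPKM with Tnnc1 at 1.84 to 2.09 FPKM. The partner with the higher level thus differed between libraries.

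The essential light chains showed the same turn. Fast Myl1 made up 89.0% of the pair's FPKM in sham 1, 80.8% in sham 3 and 76.8% in CCI 1, against 0%, 22.5% and 19.1% in CCI 2, CCI 3 and sham 2. For calsequestrin the fast share was 79.6% in sham 1, 60.2% in sham 3 and 67.0% in CCI 1, and 37.8% to 41.0% in the other libraries. For troponin I, the fast gene held 89.8% in sham 1 and 72.7% in sham 3 and 0% in the CCI libraries, where slow Tnni1 was at 0.159 to 0.397 FPKM. In sham 2 the slow gene was at 0 and the fast gene at 0.0242 FPKM.

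Troponin T and myosin-binding protein C did not turn. Fast Tnnt3 held 70.4% to 100% of its pair in all libraries, and its lowest shares were 70.4% in CCI 1 and 71.1% in sham 1. Fast Mybpc2 held 92.4% to 95.7% in the CCI libraries and 69.8% to 86.9% in the sham libraries, so that the groups did not overlap. For troponin I they did not overlap either, but in the opposite direction, with the fast share higher in sham. There the share of sham 2 rested on 5 counts of Tnni2 and 0 of Tnni1. How often other gene pairs separate in this way is not given here. Mybpc1, the slow partner of Mybpc2, was at 0.0284 to 0.115 FPKM in CCI, so the shares of that pair rest on low values.

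**Figure D3:**
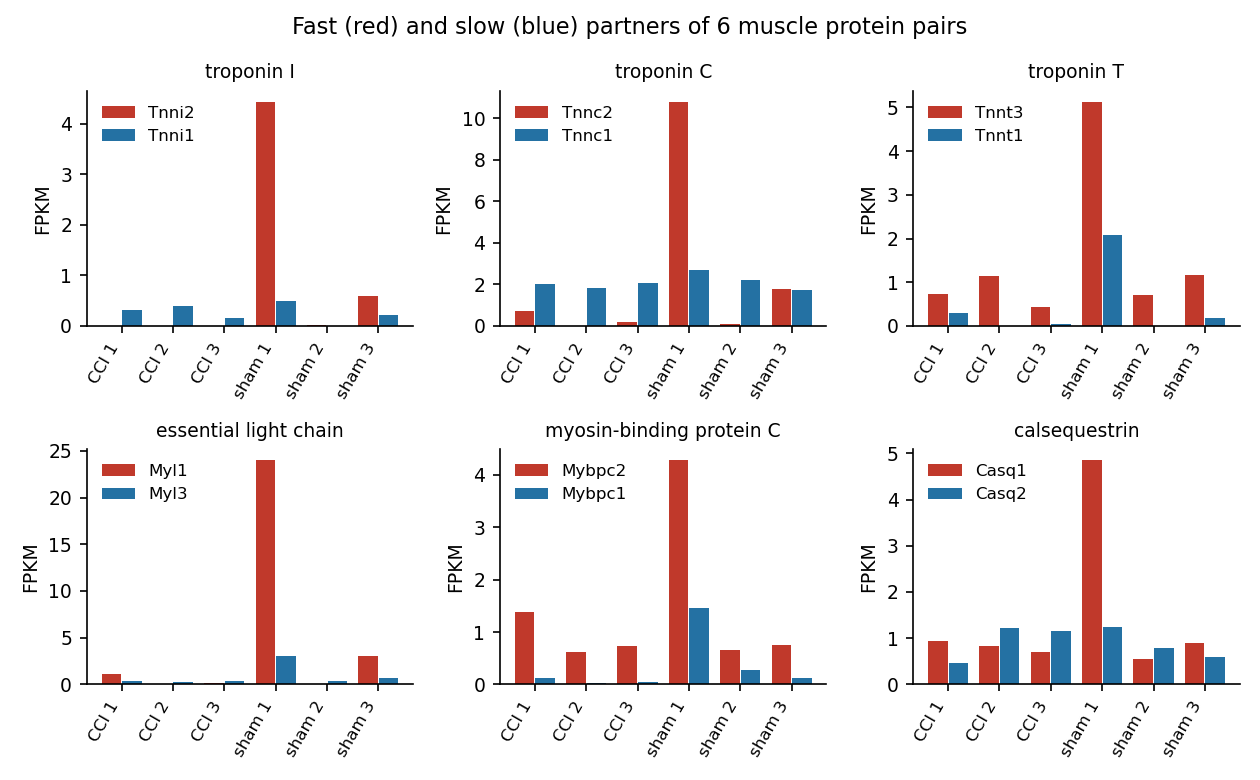
FPKM (y axis, from 0, a scale for each panel) of the fast (red) and slow (blue) gene of 6 protein pairs in each library. In sham 1 the fast bar exceeds the slow bar in all 6 pairs, from 2.46-fold for troponin T to 8.85-fold for troponin I, whereas for troponin C the slow bar is the higher one in the CCI libraries and sham 2.

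The comparison of CCI with sham asks which genes the nerve injury changes in the ganglion. Of the 25 muscle genes tested, 8 were lower in CCI by edgeR's quasi-likelihood test (a log2 fold change of -0.58 or below at an unadjusted p under 0.05), against 1.26% of all 26663 rows. In edgeR 0 were called higher, against 2.57% of all rows. At an unadjusted p under 0.05 and any fold, 0 were higher in edgeR, DESeq2 and limma. The 8 were Acta1, Actn3, Ckm, Eno3, Mb, Myl3, Mylpf and Tnni2: 3 of 10 fast, 2 of 5 slow and 3 of 10 shared genes. With the Benjamini-Hochberg adjustment over all rows, 0 of the 25 passed in edgeR, against 0.0938% of all rows, while 9 had an unadjusted p under 0.05, against 10.7% of all rows. DESeq2 gave 1 at an adjusted p under 0.05, Tnni2, and limma on log2(FPKM + 1) gave 0. An exact permutation test of 3 against 3 libraries cannot go below p = 0.1.

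The calls changed with single libraries. Without sham 1, 1 of the 25 was called lower, Tnni2, against 1.17% of all rows, 0 were called higher, against 2.77%, and 0 passed the adjustment, against 0.0300% of all rows. The filter was not formed anew in these fits, so Tnni2 was kept there only through its level in sham 1. Leaving out a CCI library also lowered the count, to 5 without CCI 1, to 1 without CCI 2 and to 2 without CCI 3, in fits with fewer samples. Without sham 2, the sham library low in muscle genes, it rose to 17, against 1.22% of all rows, and without sham 3 it was 11. The 17 included all 8. For the fits without a CCI library or without sham 3, the share of all rows called is not given here. With DESeq2 and all libraries 11 were called lower, the 8 among them. With limma on log2(FPKM + 1) no gene was called, and 1 had an unadjusted p under 0.05.

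The filter on low values also bears on these counts. Of the 25 genes tested, 9 had a mean under 0.5 FPKM in the CCI group. Actn3, Mb, Myh4, Myl3, Myoz1 and Tnni2 had a mean under 0.5 FPKM over the 5 libraries other than sham 1 and entered the test through it, and 4 of the 8 called genes were among them. The count of called genes is therefore no count over all members. Without a filter 12 genes were called lower, against 1.30% of 35757 rows, adding Mybpc1, Myh4, Myom1 and Trdn.

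The median log2 fold change was -3.52 for the 10 fast genes, -0.17 for the 5 slow genes and -0.89 for the 10 shared genes tested, against 0.01 for all rows, and with Tnni2 set at its bound the fast median was also -3.52. The slow median rested on the joined Myh6 and Myh7 row and on the filter. It was -1.11 with that row left out, which is below the shared median of -0.89. Without a filter it was also -1.11, with the shared median at -1.30. Without sham 1 the medians were -1.03, -0.01 and -0.26. Of the 25 genes, 22 had a log2 fold change below 0 with all libraries and 19 without sham 1, against 49.0% and 48.0% of all rows. Every sham library was above every CCI library for 3 of the 25, Eno3, Myom2 and Tnni2, against 8.70% of all rows, and the reverse held for 0, against 8.63% of all rows.

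**Figure D4:**
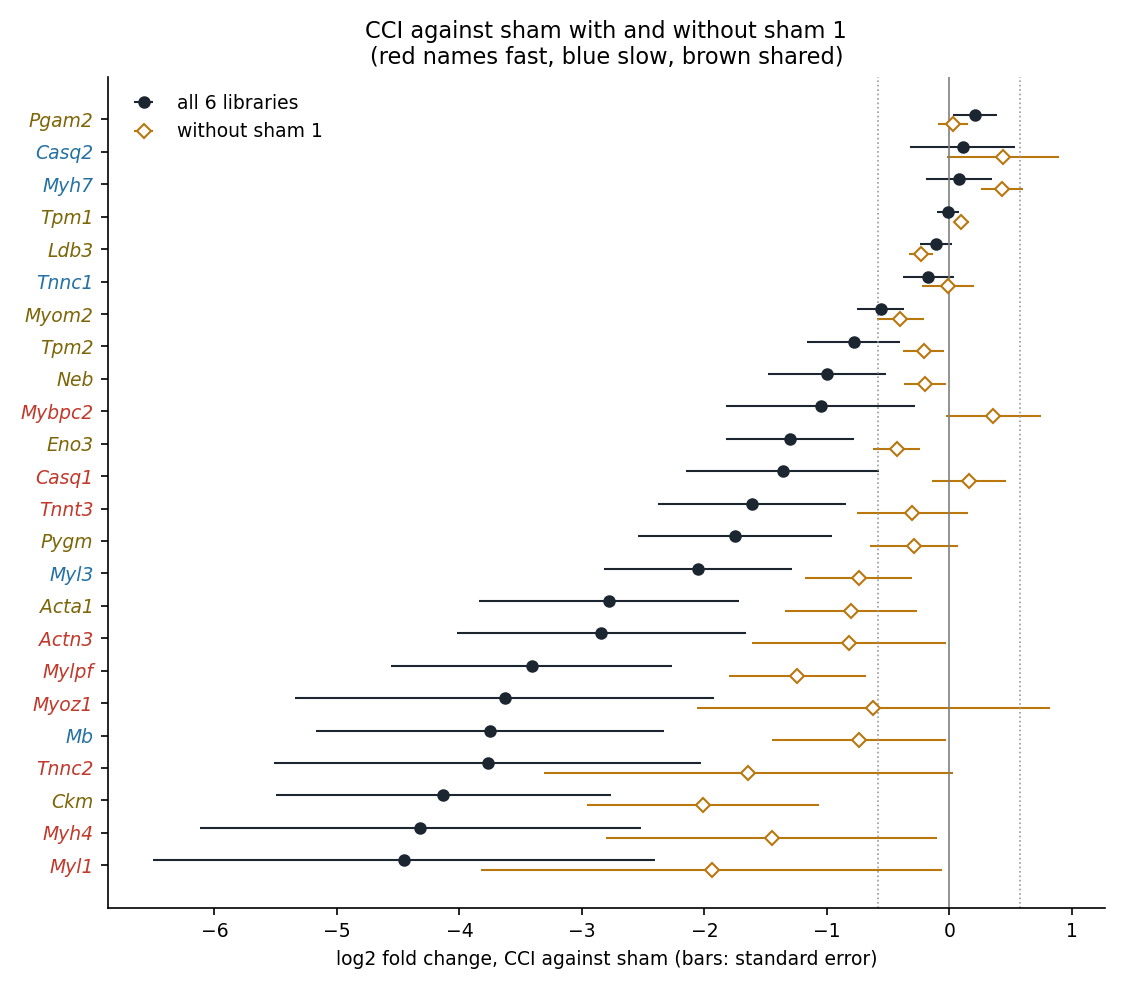
Log2 fold change of CCI against sham with its standard error (x axis) for 24 of the 25 tested muscle genes, with all 6 libraries (black circles) and without sham 1 (open diamonds); dotted lines mark 0.58 in either direction and Tnni2, at 0 in every CCI library, is not drawn. Without sham 1 most values move toward 0, as for Acta1 from -2.78 to -0.80, and those of Casq1 and Mybpc2 cross it.

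Other genes of skeletal muscle were looked at for the same pattern, in a list of 55 that are not among the 39. Of the 54 with any count, 37 were highest in sham 1 and 6 in sham 3. Of the 46 with more than 3 counts in the median of the other 5 libraries, 24 were at least 2-fold above that median in sham 1. Most of these 24 were under the filter on low values. Of the 16 genes that passed it, 5 were at least 2-fold above the median in sham 1, against 3.07% of all rows. One of the 5, Cox6a2, had a median of 0 elsewhere. Of the 16 tested, 1 was lower in CCI, Apobec2 (log2 fold change -1.27, unadjusted p = 0.0340 in edgeR), which was not called without sham 1, and 0 were higher, against 1.26% and 2.57% of all rows. The 5 with the highest mean level, Cox7a1, Usp13, Phka1, Mybph and Hspb6, did not share the pattern. In sham 1 they were at 0.862 to 1.18 times the median of the other libraries, and the highest, Cox7a1, was at 30.1 to 39.0 FPKM in CCI and 25.9 to 28.3 FPKM in sham (log2 fold change 0.40, unadjusted p = 0.00870 in edgeR, under the fold limit).

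Markers of other tissues near a ganglion moved with sham 1 to different degrees. The 8 erythrocyte genes found, hemoglobins among them, were all highest in sham 1, and their summed level was 525 FPKM there against 149 to 308 FPKM in the other 5 libraries. The 10 adipocyte genes summed to 9.92 FPKM in sham 1 and 4.37 to 6.51 FPKM elsewhere, with Lep at 0 in all libraries. In the sum Fabp4 held this excess, and without it the list summed to 5.98 FPKM in sham 1 and 6.04 FPKM in CCI 1. The Lipe row, at 2.65 to 3.26 FPKM, was the largest part of that sum, so it says little of the low genes. By CPM 6 of the 10 adipocyte genes were highest in sham 1, most of them under the filter on low values. The 10 smooth muscle genes summed to 45.3 to 50.5 FPKM in CCI and 36.4 to 42.9 FPKM in sham, and the 10 bone and cartilage genes to 7.96 to 9.35 FPKM, with sham 1 inside the range of the others in both lists. The heart muscle list, which shares the joined Myh6 and Myh7 row, summed to 22.7 to 26.8 FPKM. Of the 27 genes tested in these 5 lists, edgeR called 0 with all libraries, against 1.26% of all rows lower and 2.57% higher, and 5 had an unadjusted p under 0.05, against 10.7% of all rows. Of the 8 smooth muscle genes tested, 3 were among them, Acta2, Mylk and Tagln. They were higher in CCI but under the fold limit (log2 fold changes 0.40, 0.51 and 0.31, unadjusted p = 0.0066, 0.0300 and 0.0032 in edgeR). Col2a1 and Ryr2, the others, were lower. Without sham 1 edgeR called 1 of the 8 higher, Mylk (log2 fold change 0.65, unadjusted p = 0.0172 in edgeR), against 2.77% of all rows. With all libraries DESeq2 called 1 gene, Ibsp of the bone list, and limma 0. The part of erythrocytes, fat or any other tissue in the muscle gene differences was not tested.

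Of the genes of muscle development and regeneration, the factors Pax7, Myf5, Myod1 and Myog were at or near 0, while others were counted in every library. Pax7 and Myf5, factors of muscle stem cells, had 0 counts in all libraries, and Myod1, which commits cells to muscle, had 0 in every CCI library and 19, 8 and 4 counts in sham 1, 2 and 3. Myog had 7 counts in sham 1 and 0 elsewhere. Chodl was the 1 gene of the 3 tested in this list of 15 to be called lower, against 1.26% of all rows (log2 fold change -0.58, unadjusted p = 0.0289 in edgeR). Its highest level was in sham 2, and it was also called lower without sham 1 (log2 fold change -0.73, unadjusted p = 0.0115 in edgeR), against 1.17% of all rows. The others tested, the cadherin Cdh15 and the factor Msc, were at 11.4 to 18.0 and 0.779 to 1.74 FPKM and were not called (unadjusted p = 0.120 and 0.508 in edgeR).

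**Figure D5:**
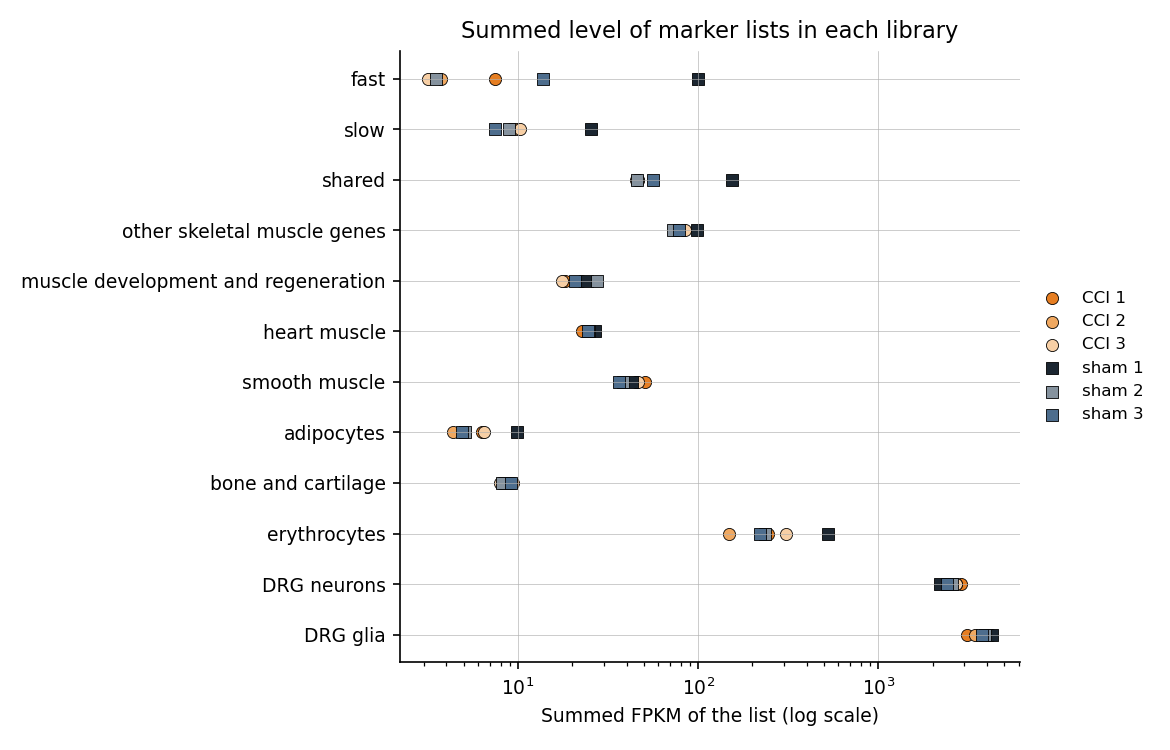
Summed FPKM (x axis, log scale) of the fast, slow and shared muscle genes and of 9 other marker lists in each library, with circles for CCI and squares for sham libraries. Sham 1 lies far to the right for fast, slow and shared genes and, less so, for erythrocytes and, through Fabp4, for adipocytes, and lowest for DRG neurons.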

How the data were processed

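Counts and FPKM per gene were deposited by the authors. Per the methods, reads of ribosomal-RNA-depleted libraries were mapped with HISAT2 (2.0 in the submitters' processing notes) to a rat genome called V101 and assembled with StringTie (1.3.0). The assembly joins overlapping genes into 1 row. The dUTP step given in the labels marks strand, but whether counting used strand is not given in the sources used here, so overlapping antisense genes cannot be separated. Members and lists were chosen with earlier results of these data known.

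A member is the row whose symbol equals its name, protein-coding rows first and then the largest summed count. Here edgeR 4.0.16 (R 4.3.3) was run on the deposited counts of 26663 rows whose mean FPKM was 0.5 or more, with TMM factors (0.988 to 1.01) and the quasi-likelihood test, and a call needed both an absolute log2 fold change of at least 0.58 and an unadjusted p under 0.05, the study's limits. P-values adjusted by Benjamini-Hochberg are over all these rows. Fold changes are CCI against sham. The 6849 rows with no symbol (5.37% to 5.72% of counts) stayed in. Counts of 3 were taken as the floor (0.0341 to 0.0394 CPM), which like all errors here covers the spread and counting in these libraries only. FPKM listed at its minimum for rows with 0 counts was read as 0. Alternatives were DESeq2 1.42.0 or its size factors, limma 3.58.1 on log2(FPKM + 1), other filters, a prior without trend, a replicate block and leaving out each library. Limma on log2(FPKM + 0.1) was added after seeing the data. Scripts were tested on simulated data. All 39 members were to be named, with 5 other muscle genes of the highest mean FPKM, Pvalb, and the 10 unlisted genes with the largest factor in the library richest in muscle genes. Apobec2, Smpx, Fbp2, Cox6a2, Des, Chodl, Ibsp, Acta2, Mylk, Tagln, Col2a1, Ryr2, Fabp4, Lipe and the myogenic factors were named after their values were seen.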

Additional observations from a re-analysis of the deposited data

How the results depend on the processing

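The count of 8 muscle genes lower in CCI was 11 with DESeq2 and 9 with DESeq2 size factors in edgeR, both including all 8. It was 0 with limma on log2(FPKM + 1) or on log2(FPKM + 0.1), and ranged from 1 to 17 when each library was left out. With a mean FPKM of at least 1 it was 7, and with a prior without trend also 7. The count at an adjusted p, 0 in edgeR, was 1 with DESeq2. Shares of all rows called are given only for edgeR with all libraries, without sham 1, without sham 2 and without a filter. Counts from the other settings stand without such a share. Of the other skeletal muscle genes, 1 was lower. This became 2 with DESeq2 (Apobec2 and Smpx), 0 with limma on log2(FPKM + 1), 0 with a mean FPKM of at least 1, 8 without a filter, and 0 to 3 when each library was left out (2 without CCI 3, Fbp2 and Smpx, and 3 without sham 2, Apobec2, Cox6a2 and Des). The median log2 fold change of fast genes was -1.0 with limma on log2(FPKM + 1), where the pseudocount holds low genes near 0, and -4.53 to -1.03 over libraries left out. That of slow genes was -1.11 without a filter, -1.11 without the joined Myh6 and Myh7 row, and -0.32 to -0.01 over libraries left out. That of shared genes was -1.15 to -0.26. Tpm1 turned to 0.01 with both pseudocounts. Over libraries left out, log2 fold changes crossed 0 for Casq1 (-1.81 to 0.16), Casq2 (-0.12 to 0.44), Mybpc2 (-1.50 to 0.36), the Myh7 row (-0.16 to 0.43) and Tpm1 (-0.09 to 0.10). Of 346 single-gene values under alternatives, 264 kept direction and side of the threshold, 48 lost and 25 gained a call, and 9 reversed. Over all rows tested, same-numbered libraries did not deviate together (r = -0.0106, -0.0218 and -0.0547). This was not computed for the muscle genes alone. Of the 10 fast genes, all were highest in sham 1, and CCI 1 was the highest CCI library for 8. The replicate block gave 7 genes lower, 3 of them among the 8, and 0 at an adjusted p. With it the unadjusted p of Myl1 went from 0.0691 to 4.6e-05 in edgeR. The cause of these changes was not tested. The number of genes highest in sham 1 was 31 in CPM and in FPKM. Low counts limit Mb, Myoz1, Tnni2 and Tnnt1 outside sham 1, and Myl1 and Tnnc2 in CCI 2, CCI 3 and sham 2.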

Other observations

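Pvalb, parvalbumin, a calcium buffer that both fast muscle fibres and proprioceptive neurons express, had counts of 3189, 3876 and 3437 in the CCI rats against 7341, 4933 and 5665 in the sham rats. Sham 1 was the highest library, as for most muscle genes, but every sham library was above every CCI library, sham 2 included. Pvalb was lower in CCI by a log2 fold change of -0.69 (SE 0.13, unadjusted p = 0.00134, adjusted p = 0.144 in edgeR), and without sham 1 the change was -0.57 (unadjusted p = 0.00242 in edgeR), just under the fold limit.

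Genes outside all lists were ranked by the same ratio in sham 1. Of 17436 rows with a symbol and at least 1 FPKM in sham 1, 47 were at least 8-fold above the median of the other 5 libraries. The 10 with the largest factor were LOC103692165, Nlk, Wdr54, AABR07000398, Nfs1, Mapk7, LOC103689986, LOC103690149, 7SK and Klf7. The listed muscle genes had been left out beforehand, so they could not appear here. For most of the 10 the factor is a lower bound, as the median of the other 5 libraries was 0. Most of these rows were at 0 in some libraries and well counted in others, and several were as high in another library as in sham 1, such as Nfs1 at 6.71 FPKM in sham 1 and 8.29 FPKM in sham 3. Mapk7 was at 1.97 to 2.15 FPKM in all 3 sham libraries. The non-coding RNA 7SK was at 1030 FPKM in sham 1 and 554 FPKM in sham 3, against 4.83 to 102 FPKM in the other libraries. Sham 1 and then sham 3 was also the order of many muscle genes. Nlk had 2225 counts in sham 1 and 0 in the other 5, whereas Wdr54 had 1532, 1639 and 1851 counts in CCI 3, sham 1 and sham 2 and 0 in the rest. Such rows were found in both groups: 159 rows tested had 0 counts in at least 1 library and 500 or more in another. Among the muscle genes there were 4 of this kind, Myl1, Myoz1, Tnnc2 and Tnni2.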
